A study of Mus musculus with 12 samples.

Results

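Late risers of the developing mouse eyelid are array probes whose signal at least doubled from embryonic day E14.5 to E16.5 and had made less than 25% of that rise by E15.5. They were 236 of 41999 probes in the authors' table of log10 values. The rule averaged the 4 arrays of a stage, 2 wild type and 2 Tabby, and asked for a rise of at least 2-fold and for signal well above background on all 4 E16.5 arrays. Of the 41999 probes, 2433 met the rise, 360 of these also met the timing, and 245 of those were bright enough at E16.5. Another 9 probes that met all 3 conditions were left out by name, which gave 236. The members were chosen by these measured stage values, which are described here without a test. The comparison of Tabby with wild type was not part of the rule, although the 9 probes left out all read lower in Tabby at E16.5, so counts over the members describe a chosen set.

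The study compared eyelids of C57BL6/J wild-type embryos with eyelids of Tabby embryos at 3 stages, E14.5, then E15.5, then E16.5. Each of the 6 groups holds 2 arrays, described in the labels as biological replicates. Tabby is a spontaneous X-linked mutation of Eda; the labels do not give the allele, and neither the sex of the embryos nor any pooling is stated. Eyelid RNA was labelled with Cy3 (green) and hybridised against one common reference in Cy5 (red), a pool of mouse cell line RNA mixed with embryonic stem cell RNA. The 3 stages lay on 3 slides, so stage and slide cannot be told apart, and wild type and Tabby held fixed positions on every slide, so genotype and position on the slide cannot be told apart. With 2 arrays a group, p-values measure the spread between these samples only.

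In the mouse embryo the upper and lower lids grow across the cornea, meet and fuse by their epithelium, and stay shut until after birth. Around the time of fusion the lid skin also builds its outer layers: basal keratinocytes give rise to spinous, then granular, then cornified cells, each with its own structural proteins. Below it the ring muscle that closes the lids matures, and the lid margin later forms lashes and Meibomian glands, which secrete the oily film of the tears. Eda encodes ectodysplasin A, a ligand of the tumour necrosis factor family that signals through its receptor Edar to NF-kB in skin appendages. Tabby mice lack its function, have missing or altered hair types, teeth and sweat glands, and lack Meibomian glands.

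The deposited files give each probe by its identifier and its 60-base sequence, with 0 probes carrying a gene name, so the late risers are described by identifier. Lists of epidermal, muscle and other marker genes could therefore not be counted among them, and the labelled tissue was not checked against marker genes. The sequences of the probes the results turn on are printed from 5′ to 3′. The first 7 were called lower in Tabby at E16.5, and the next 4 complete the 5 largest rises by the authors' values. Capitals in these mark AATAAA or ATTAAA, hexamers known as polyadenylation signals.
Z00040994-1: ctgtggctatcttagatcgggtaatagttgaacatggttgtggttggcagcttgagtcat
Z00038555-1: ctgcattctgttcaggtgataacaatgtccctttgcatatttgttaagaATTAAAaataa
Z00055894-1: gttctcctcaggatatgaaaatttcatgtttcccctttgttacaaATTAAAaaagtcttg
Z00070193-1: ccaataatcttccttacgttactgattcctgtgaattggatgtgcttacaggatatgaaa
Z00035454-1: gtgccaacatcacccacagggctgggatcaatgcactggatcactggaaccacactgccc
Z00042327-1: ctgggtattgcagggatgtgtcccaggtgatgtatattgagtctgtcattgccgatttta
Z00074220-1: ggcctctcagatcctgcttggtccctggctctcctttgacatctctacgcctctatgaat
Z00054288-1: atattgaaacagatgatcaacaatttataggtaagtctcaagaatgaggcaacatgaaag
Z00070340-1: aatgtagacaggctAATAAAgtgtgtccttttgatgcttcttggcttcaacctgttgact
Z00064871-1: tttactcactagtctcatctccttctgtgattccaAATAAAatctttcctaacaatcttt
Z00049767-1: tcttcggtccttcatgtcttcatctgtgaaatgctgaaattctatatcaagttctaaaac

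Some late risers overlap each other in sequence. A search for shared runs of at least 20 bases found 6 pairs of members, 12 probes in all, that overlap on the same strand. These 2 pairs are shown because their members moved together array by array, and capitals mark the shared run.
Z00041156-1: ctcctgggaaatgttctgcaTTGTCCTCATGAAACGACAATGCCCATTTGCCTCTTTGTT
Z00059773-1: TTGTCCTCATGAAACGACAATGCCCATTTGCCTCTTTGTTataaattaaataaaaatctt
Z00024156-1: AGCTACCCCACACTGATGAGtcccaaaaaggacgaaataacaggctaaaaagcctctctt
Z00054719-1: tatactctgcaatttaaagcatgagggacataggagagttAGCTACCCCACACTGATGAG

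The polyadenylation hexamers were somewhat more frequent among the late risers than on the array. AATAAA occurred on the printed strand of 25 late risers (10.6%), of 7.98% of the 1766 probes that also doubled but made 25% or more of their rise by E15.5, and of 6.93% of all 41999 probes. ATTAAA occurred in 3.39% of late risers and 3.19% of all probes, and either hexamer in 13.6% and 9.90%. ATTTA, the core of AU-rich elements, occurred in 5.51% of late risers and 7.25% of all probes. The median G and C content was 45% in late risers and 43.3% over the array. These shares describe the letters in a 60-base window of each transcript and nothing outside it.

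A single late riser matched a gene's promoter window. Whole transcripts and the genome were not searched, so other matches of its sequence are not excluded. Z00058942-1 matched, over all its 60 bases, the RefSeq promoter window of Gm11295 (build GRCm38.p6, plus strand, chr13:22282309-22282368), a gene model annotated as protein coding, whose window runs from 250 bases before to 50 bases after its start. The window table matched 267 of the 41999 probes in full, 1 of them a late riser. Capitals mark the 28 bases from the annotated start onward, and the 32 bases before them lie upstream of it.
Z00058942-1: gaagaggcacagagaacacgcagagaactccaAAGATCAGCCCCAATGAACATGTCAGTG
No late riser matched a RefSeq miRNA hairpin.

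"Silent until after E15.5" fitted a minority of the set. Well above background is Agilent's own flag for a spot that clears its local background. Of the 236 late risers, 146 (61.9%) carried that flag on all 8 earlier arrays (those before E16.5), 57 (24.2%) on some of them and 33 (13.98%) on none. The 146 lit ones rose by a median of 2.78-fold in the authors' values, up to 65.0-fold, and no exact fold can be given for the dark ones. Most late risers were thus measurable from E14.5 on. By stage, 52 were above background on none of the 4 E14.5 arrays and 39 on none of the 4 E15.5 arrays.

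**Figure D1:**
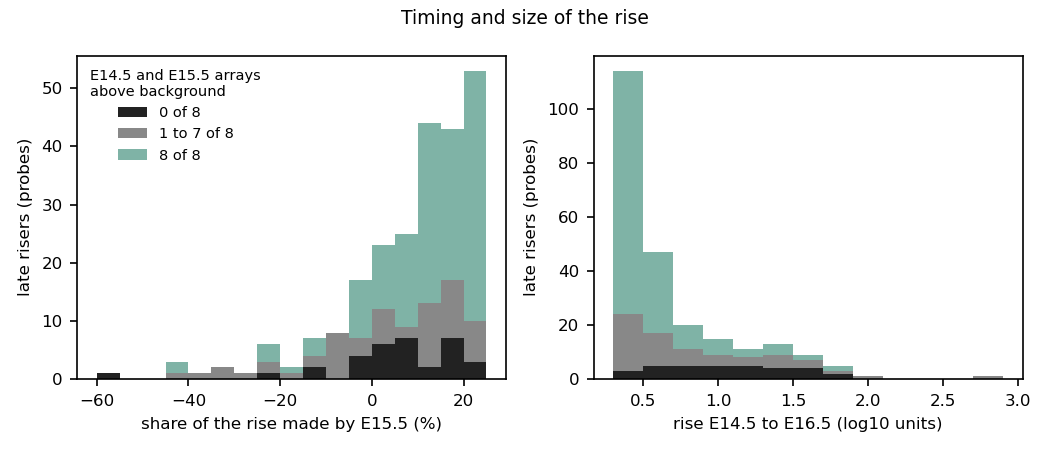
Histograms of the 236 late risers by the share of the rise made by E15.5 (left, percent) and by the size of the rise (right, log10 units), coloured by how many of the 8 earlier arrays carried the probe above background. Both limits come from the rule; 48 probes lie below 0 on the left, and most of the set lies near the lower limit of the rise on the right.

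The size of the rise was uneven. By the authors' values it ran from 2.00-fold to 608.6-fold with a median of 3.31-fold and quartiles of 2.41 and 7.64. Of the late risers, 107 rose 2-fold to 3-fold, 45 rose 10-fold or more and 17 rose 30-fold or more. Where none of the 4 E14.5 arrays was well above background, in 52 late risers, a fold is only a lower bound. It was computed against the dimmest detected signal, from the eyelid channel after background correction with an added constant, the offset. These bounds had a median of 1.504-fold and a highest value of 165-fold, and 17 were 2-fold or more. The offset shrinks the folds of dim probes, so a low bound does not mean a small rise. The same holds for the bounds of single probes given below.

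By E15.5 the median late riser had made 12.5% of its rise (quartiles 4.13% and 18.8%). At that stage 48 late risers read below their E14.5 mean, 48 had made 0 to 10% of the rise, 87 had made 10 to 20% and 53 had made 20 to 25%. The deepest dips were Z00022485-1 at -56.2% and Z00024966-1 at -43.6%; the first was not above background on any E14.5 or E15.5 array. At the limits, Z00033426-1 with a 2.00-fold rise and Z00017574-1 with 24.97% were inside. Z00045042-1 with 1.999-fold and Z00039272-1 with 25.1% were outside, as was Z00022887-1, which rose 19.3-fold but had made 25.2% of it.

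Array by array, the late risers moved in 1 step. The median share of the rise was between -0.44% and 0.95% on the 4 E14.5 arrays, 8.10% and 15.6% on the wild-type and 18.1% and 6.23% on the Tabby arrays of E15.5, and 105.7% and 103.9% in wild type against 96.8% and 93.8% in Tabby at E16.5. All 4 E15.5 arrays thus stood a little above E14.5, and the 2 E15.5 replicates of each genotype differed by more than the genotypes did. Late risers brighter in eyelid than in the reference numbered 74 to 81 at E14.5, 81 to 107 at E15.5 and 179 to 189 at E16.5, while the same share over all tested probes stayed between 50.7% and 52.3%. The normalisation centres the ratios of each array, so it holds the share over all tested probes steady.

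**Figure D2:**
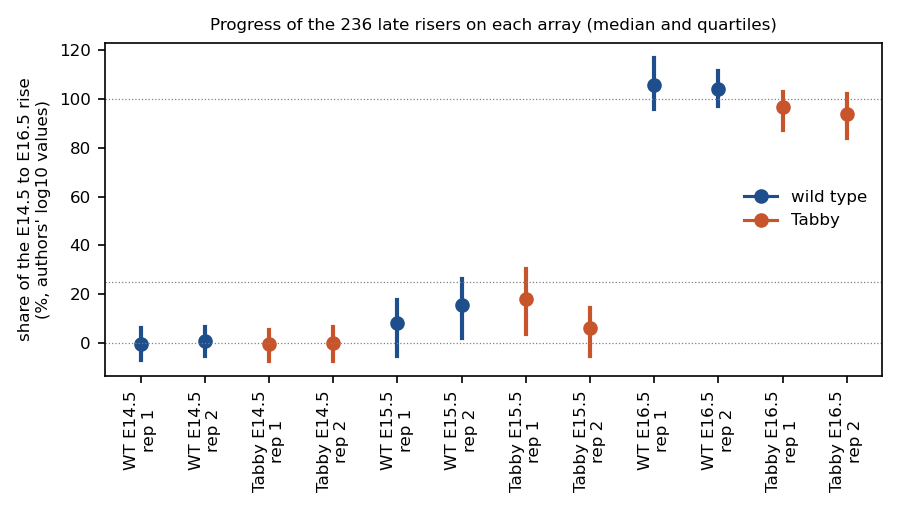
Median (points) and quartiles (bars) over the 236 late risers of the share of each probe's E14.5 to E16.5 rise reached on each of the 12 arrays, from the authors' log10 values, with dotted lines at 0, 25 and 100%. The 8 earlier arrays lie at or under 18.1% and the 4 E16.5 arrays between 93.8% and 105.7%, with both wild-type arrays above both Tabby arrays; the rule itself fixes the step.

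Both genotypes made the step. Applied to wild-type arrays alone the rule held for 200 of the 236, applied to Tabby arrays alone for 182, for both in 152 and for neither in 6. Every late riser rose in wild type and 235 rose in Tabby. The median rise was 3.71-fold in wild type and 3.16-fold in Tabby, and Tabby made a median of 89.6% of the wild-type rise on the log scale (quartiles 77.6% and 104.9%). In the 1766 earlier risers that share was 92.1%.

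The later measurements use the log2 ratio of eyelid over reference after background correction with an offset of 50, which pulls dim probes towards 0. On that scale all 236 late risers rose, by a median of 1.06 log2 units, and 131 rose by 1 unit or more. The rule's thresholds on these ratios held for 121 of the 236, 90 of them among the 146 lit probes. Replicate arrays of late risers differed by a median of 0.08 and 0.07 log2 units at E14.5 (wild type and Tabby), 0.19 and 0.14 a day later, and 0.15 and 0.12 at E16.5. Over all tested probes the same medians lay between 0.05 and 0.09. The 1766 earlier risers had medians of 0.08 and 0.08 at E14.5, 0.26 and 0.26 a day later, and 0.14 and 0.12 at E16.5. A wider spread than the array as a whole was thus shared with the earlier risers, which spread more at E15.5.

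The 5 largest rises by the authors' values are given in full; on the eyelid channel alone the order differs, and Z00025655-1, a 21.9-fold riser by the authors' values, stood at least 165-fold above E14.5. Z00040994-1, with the largest rise of 608.6-fold by the authors' values, is described among the Tabby calls. Z00054288-1 rose 91.8-fold and read -0.01 and 0.02 in wild type and 0.37 and 0.20 in Tabby at E14.5, -0.01 and 0.09 against 0.22 and 0.14 at E15.5, and 4.50 and 4.38 against 3.80 and 4.06 at E16.5 (log2 ratios, as are those that follow). It was above background on 1 E14.5 array and on no E15.5 array, and its 4 E16.5 values stood clear of the other 8. On Tabby E14.5 replicate 1 both its spots were bright, 142 in eyelid and 152 in reference. The other earlier arrays read 51 to 57 and 50 to 54. Its 91.8-fold rise includes that array and dark ones, so it is not exact, and the cause was not tested. Z00070340-1 rose 65.0-fold and was lit on all 12 arrays: it read -1.99, -2.35, -2.45 and -2.33 at E14.5, -1.47, -1.57, -1.25 and -2.03 at E15.5, then 3.21, 3.03, 2.76 and 2.86 at E16.5, each time wild type first. It went from well below the reference to well above it in a single day, in both genotypes.

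Z00049767-1 is listed at a 59.5-fold rise in the authors' values, and in the eyelid channel alone it stood at least 137.7-fold above E14.5. It read -0.19, -0.16, -0.16 and -0.19 at E14.5, -0.05 and 0.25 in wild type with -0.09 and 0.05 in Tabby at E15.5, then 4.71 and 4.82 against 3.98 and 4.26 at E16.5. No E14.5 array saw it above background. Z00064871-1 was dark on all 8 earlier arrays, with readings between -0.19 and 0.00, and rose to 5.14 and 4.42 in wild type and 1.68 and 2.86 in Tabby, at least 16.03-fold over E14.5 in the eyelid channel. Its wild-type and Tabby arrays did not overlap at E16.5, a difference of -2.51 ± 0.339 (SE) that missed the threshold (limma adjusted p = 0.055).

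In some of the brightest late risers the reference signal rose together with the eyelid signal. The same reference was used on every array, and over the late risers its signal changed by a median of 0.12 log2 units from E14.5 to E16.5 (quartiles 0.01 and 0.33), against 1.94 in the eyelid channel. Both changes come from Feature Extraction's processed signals, without the offset. In 16 late risers (6.78%), however, the red signal rose at least 2-fold, against 1.14% of all tested probes, and in none did it fall 2-fold. Some of the 16 stayed dim in the reference, where a 2-fold change in processed signal is a small change in spot intensity. The reference spot of Z00054640-1 read 48 to 53 on the 8 earlier arrays. At E16.5 it read 59 and 64 in wild type and 54 and 55 in Tabby. In Z00025655-1 the mean eyelid spot intensity was 49 to 65 on the 8 earlier arrays, then 37472 and 14513 in wild type and 1698 and 3904 in Tabby at E16.5. Its reference spot intensity was 57 to 61 on the earlier arrays, then 6364, 2482, 313 and 666 on the same 4 arrays. Red thus followed green from array to array, although the reference RNA was the same.

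Z00022890-1 and Z00049767-1 behaved alike. Z00022890-1 read 42575 and 23233 (wild type), then 10352 and 11103 (Tabby) in the eyelid channel at E16.5, with 2119, 1206, 539 and 575 in the reference channel. Z00049767-1 read 27576, 10657, 1917 and 3413 in eyelid and 2540, 943, 206 and 321 in reference, in the same order. In 11 of the 16 probes the 4 E16.5 arrays had the same order in both channels, and no spot of the 16 was flagged as saturated. The cause was not tested.

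The genotype difference of these 16 depended on the channel read. Their median Tabby minus wild type at E16.5 was -0.45 log2 units as a ratio, but -1.34 in the eyelid channel alone. The reference channel itself differed by a median of -1.49, against -0.003 over all tested probes. Single reference differences of the 16 ran from -3.16 to -0.19. Their median lies beside the value of Z00054640-1 (-1.51), whose reference spots were dim. The values of single channels are again processed signals without the offset. In Z00025655-1 the ratio read 3.97 and 4.00 in wild type and 3.25 and 3.48 in Tabby, a difference of -0.62, where the eyelid channel alone gave -3.46. In the other 220 late risers the medians were -0.13 as a ratio, -0.23 in the eyelid channel and -0.04 in the reference channel.

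**Figure D3:**
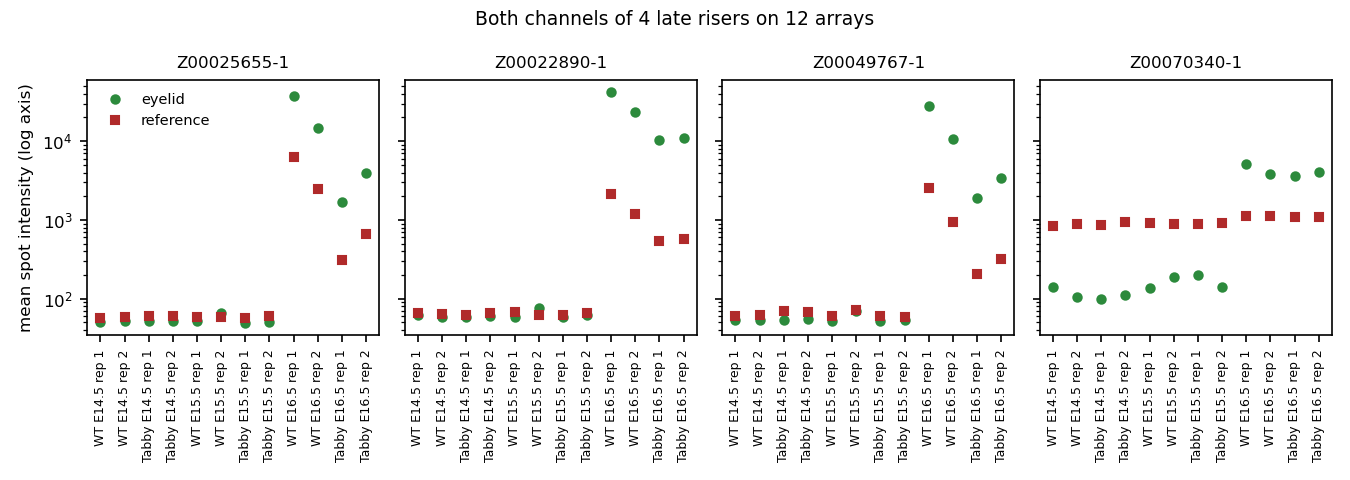
Mean spot intensity (log axis) of 4 late risers on the 12 arrays, green circles for eyelid RNA and red squares for the common reference. In Z00025655-1, Z00022890-1 and Z00049767-1 the reference spot rises at E16.5 and follows the eyelid spot from array to array; in Z00070340-1 the eyelid spot crosses a reference spot that stays between 842 and 1131.

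At E16.5 most late risers read lower in Tabby than in wild type, while at E14.5 they were evenly split. At E16.5, 172 of 236 (72.9%) read lower in Tabby, against 49.4% of all 32981 tested probes. The median difference was -0.14 log2 units (quartiles -0.36 and 0.004), against 0.001 over all tested probes. At E14.5, 116 (49.2%) read lower with a median of 0.001, and at E15.5, 151 (64.0%) with a median of -0.04. Over all tested probes 46.6% read lower at each of these 2 stages. WT E15.5 replicate 1, described below, read nearer 0 than replicate 2 in members below and above the reference. The E15.5 share without that array was not counted, so no gradual opening from E14.5 on is read from it. With the 9 probes left out by name added back, 181 of 245 read lower at E16.5, with a median of -0.16; the 9 had a median of -1.34. Among the 1766 earlier risers 62.5% read lower, with a median of -0.04. In bulk tissue, fewer cells of a type and less RNA per cell cannot be told apart.

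By the limma fit across all tested probes, 7 late risers were called lower in Tabby at E16.5 and 0 higher, where 0.0788% of tested probes were called lower and 0.00303% higher. At an unadjusted p under 0.05, 75 were lower and 4 higher, 33.5% of the late risers against 3.97% of tested probes. Both Tabby arrays read below both wild-type arrays in 114 late risers (48.3%, against 14.4% of tested probes) and above both in 16 (6.78%, against 14.3%).

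The 7 calls depended on single arrays. Leaving out Tabby E16.5 replicate 1 or any E14.5 array removed all calls. Leaving out WT E16.5 replicate 1 or either Tabby E15.5 array left fewer. Without WT E16.5 replicate 2 or either WT E15.5 array there were more. Shares over all tested probes were not counted for these fits, so whether the changes are particular to the late risers was not tested. From Feature Extraction's own ratios, its processed signals after loess, the eyelid channel alone or the authors' table there were 0 calls. The 7 differences stayed negative under every alternative run.

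**Figure D4:**
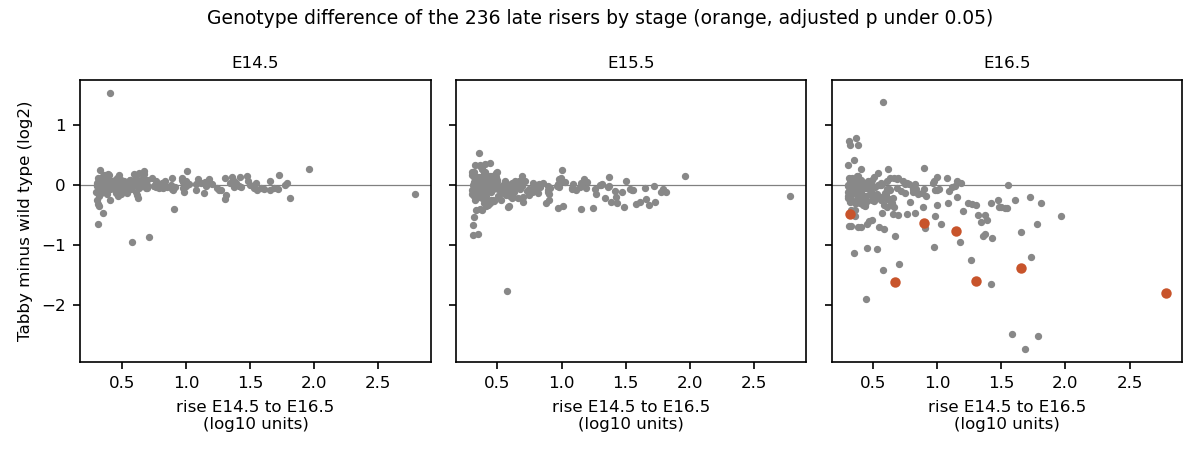
Tabby minus wild type (log2 units) of each of the 236 late risers against its rise (log10 units) in 3 panels, one per stage, with the 7 called probes in orange. The points centre on 0 at E14.5 (median 0.001) and spread below 0 at E16.5 (median -0.14), with the largest risers among the lowest.

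Z00040994-1, the largest riser by the authors' values, stood furthest above the reference. It read -0.51 and -0.58 in wild type and -0.75 and -0.62 in Tabby at E14.5, and -0.22 and -0.18 against -0.43 and -0.33 at E15.5. At E16.5 it read 7.95 and 7.44 in wild type and 5.48 and 6.29 in Tabby. The arrays of the 2 genotypes did not overlap at any stage, and the E16.5 difference was -1.81 ± 0.237 (SE; limma adjusted p = 0.0477). Its eyelid spots read 35064 and 16218 against 3927 and 6397, and its reference spots 289, 208, 140 and 139 on the same arrays.

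Z00042327-1 was near the reference in Tabby at E16.5 and well above it in wild type. At E14.5 it read -0.86 and -0.84 in wild type and -0.68 and -0.65 in Tabby, and at E15.5 -0.64 and -0.73 against -0.82 and -0.68. At E16.5 it read 2.40 and 1.62 in wild type but 0.29 and 0.49 in Tabby, a difference of -1.62 ± 0.202 (limma adjusted p = 0.035). Its rise by the authors' values was 9.36-fold in wild type and 2.37-fold in Tabby. It was well above background on all 12 arrays.

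Z00055894-1 and Z00038555-1, whose sequences both hold ATTAAA near the 3′ end, shared a profile. Z00055894-1 lay between -0.22 and 0.12 on the 8 earlier arrays, then read 3.65 and 3.35 in wild type and 1.55 and 2.25 in Tabby, a difference of -1.60 ± 0.192 (limma adjusted p = 0.0306). Z00038555-1 lay between -0.32 and -0.05, then read 3.54 and 3.37 against 1.80 and 2.35, a difference of -1.38 ± 0.157 (limma adjusted p = 0.0254). Neither was above background on any E14.5 array. At E16.5 they stood at least 13.8-fold and 19.999-fold above E14.5 in the eyelid channel with the offset. Both belong to the 16 whose red signal rose: in the eyelid channel alone the differences were -3.57 and -3.44. By the authors' values, whose E14.5 readings lie below the detection limit here, Z00055894-1 rose 25.3-fold in Tabby and 16.02-fold in wild type, the opposite order, and Z00038555-1 rose 32.9-fold and 61.3-fold.

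Z00070193-1 and Z00035454-1 differed less, with tight replicate ratios. Z00070193-1, dark on all 8 earlier arrays and between 0.03 and 0.28 there, read 2.39 and 2.27 in wild type and 1.56 and 1.56 in Tabby at E16.5, a difference of -0.77 ± 0.0884 (limma adjusted p = 0.0254). Z00035454-1, lit throughout, lay between -0.25 and 0.08 before and read 2.48 and 2.38 against 1.85 and 1.74, a difference of -0.63 ± 0.0777 (limma adjusted p = 0.0338). Its eyelid spots at E16.5 read 754 and 474 in wild type and 362 and 306 in Tabby. Its reference spots read 210, 147, 144 and 129 on the same arrays, after 122 to 134 before. For Z00070193-1 the eyelid spots read 251, 220, 174 and 143 and the reference spots 59, 54, 73 and 53. Z00074220-1 had the smallest called difference, -0.49 ± 0.0552 (limma adjusted p = 0.0254). It lay between 0.23 and 0.39 on the 8 earlier arrays and reached 1.63 and 1.56 in wild type but 1.16 and 1.05 in Tabby, a rise of 2.46-fold against 1.77-fold by the authors' values.

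**Figure D5:**
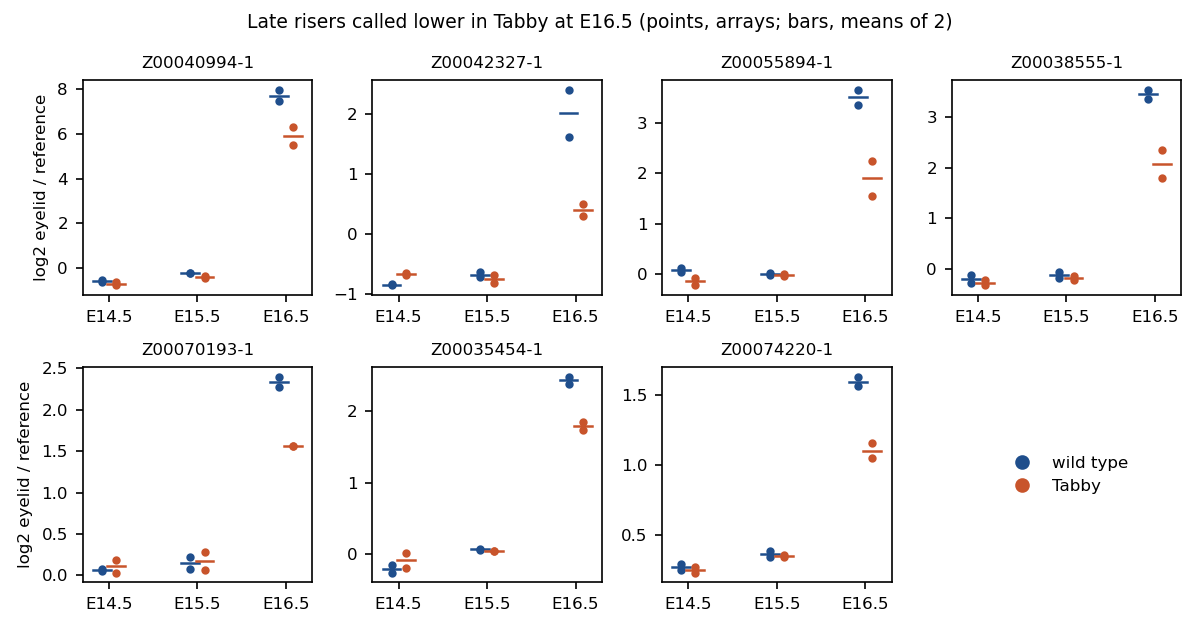
Log2 ratio of eyelid over reference on each array (points) and group means (bars, 2 arrays) for the 7 late risers called lower in Tabby at E16.5; each panel has its own vertical scale. In all 7 the wild-type and Tabby arrays lie apart at E16.5, and every E16.5 value exceeds the E14.5 and E15.5 values.

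The widest differences were not among the calls, and their replicates spread more. The overlapping probes Z00041156-1 and Z00059773-1 read 3.56 and 3.10, and 3.97 and 3.27, in wild type at E16.5. In Tabby they read 0.32 and 1.37, and 0.31 and 1.47. Both were lit on all 12 arrays. The differences of -2.48 ± 0.337 and -2.73 ± 0.396 missed the threshold (limma adjusted p = 0.055 and 0.0666). Before that they lay between -2.00 and -1.63 except on WT E15.5 replicate 1, where they read -1.13 and -0.93. By the authors' values they rose 89.7-fold and 127.7-fold in wild type and 16.3-fold and 18.2-fold in Tabby. Their reference spots were also brighter in wild type at E16.5. Z00041156-1 read 436 to 471 on the 8 earlier arrays, then 1973 and 989 in wild type and 472 and 586 in Tabby. Z00059773-1 read 335 to 381, then 984 and 582 against 337 and 390. A ratio understates the eyelid difference where the reference differs in the same direction. The 2 probes share 40 bases and are no independent evidence of each other.

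The median genotype difference at E16.5 lay further below 0 in bins of larger rise. With the late risers ranked by rise in 4 bins of 59 probes, the median Tabby minus wild type was -0.04, -0.12, -0.13 and -0.37 from the smallest rises to the largest, with 1, 0, 1 and 5 calls. Relative to the rise the order was the reverse. By the authors' log values, Tabby made a median of 85.0%, 86.6%, 91.4% and 92.9% of the wild-type rise in the same bins. The 33 dark probes had a median of -0.08 with 23 lower, the 57 partly lit -0.14 with 46 lower, and the 146 lit -0.14 with 103 lower. These are descriptions of the set and were not tested.

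At E14.5 and E15.5 the limma fit called 0 late risers and 0% of tested probes in either direction. At an unadjusted p under 0.05 there were 8 at E14.5, 3.39% against 2.40% of tested probes, and 10 at E15.5, 4.24% against 6.70%. The fit did call late risers at E15.5 when WT E15.5 replicate 2 was left out, which leaves replicate 1 as the only wild-type array there. Leaving out 1 array hardly changed the calls at E14.5. Shares over all tested probes were not counted for these fits, so nothing particular to the late risers is read from them. Z00058152-1 had the smallest p at both stages and passed at neither: it read -1.26 and -1.14 in wild type and -1.55 and -2.14 in Tabby at E14.5, -0.87 and -0.96 against -1.62 and -1.54 at E15.5, and -0.43 and -0.26 against -0.59 and -0.50 at E16.5. It was lower in Tabby at all 3 stages and came closest to wild type at E16.5 (differences -0.64, -0.67 and -0.20).

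The others of smallest p did not pass either. At E14.5 these were Z00071161-1 with a difference of -0.18, Z00054288-1 with 0.27 and Z00076160-1 with 0.21. Z00076160-1 was above background on none of the 4 E14.5 arrays and Z00054288-1 on 1, so no order of the genotypes can be read from them at that stage. At E15.5 Z00058942-1, the probe that matched the Gm11295 window, read 0.04 and 0.46 in wild type and -0.57 and -0.55 in Tabby (difference -0.81 ± 0.222, limma adjusted p = 0.597). One day later it read 0.07 and 0.79 against 0.86 and 0.84, so its order at E15.5 was not kept. Higher at E15.5 were Z00078156-1 by 0.27 and Z00040016-1 by 0.22.

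Averaged over the 3 stages, the limma fit called 0 late risers, where 0.0273% of tested probes were lower and 0.00303% higher. At an unadjusted p under 0.05, 52 were lower and 1 higher, 22.5% against 5.86% of tested probes. It did call late risers when WT E15.5 replicate 2, Tabby E16.5 replicate 2 or WT E16.5 replicate 2 was left out. The matching shares over all tested probes were again not counted. The smallest p belonged to Z00067535-1, which read -1.88 and -1.70 in wild type and -1.76 and -1.80 in Tabby at E14.5, -1.29 and -1.61 against -1.75 and -1.87 at E15.5, and -0.03 and 0.05 against -0.75 and -0.68 at E16.5. Its genotypes lay furthest apart at E16.5 (difference averaged over stages -0.36, limma adjusted p = 0.207), but no dependence on stage was called for it. Higher in Tabby on average, and not called, were Z00058726-1 by 0.14 and Z00039703-1 by 0.12.

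The test of whether the genotype difference depends on stage, a moderated F test in limma, called 0 late risers and 0.00303% of tested probes. At an unadjusted p under 0.05 it gave 60 late risers, 25.4% against 3.14% of tested probes, with a smallest adjusted p of 0.553, for Z00070193-1 and Z00035454-1. Some fits without 1 array did call late risers, again with no count of the share over all tested probes. A difference at E16.5 that is greater than at the earlier stages was therefore not shown for any single late riser by the fit on all 12 arrays.

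A few late risers did not rise on every E16.5 array. On WT E16.5 replicate 1, 5 of them stood under 25% of their own rise, against 1 on WT replicate 2 and 2 on each Tabby array. Z00005843-1 read -2.50 there and -0.13 on the other wild-type array, with 0.49 and -0.36 in Tabby. The overlapping Z00024156-1 and Z00054719-1 read -3.13 and -2.88 there, -1.93 and -1.80 on the other wild-type array, and -1.07 with -2.43 and -1.08 with -2.27 in Tabby. Their 4 arrays thus kept one order in both probes, and the lone low array sets their wild-type mean. Z00031007-1 (-1.53 against -0.44, 0.10 and -0.60) and Z00062013-1 (-0.89 against 0.34, 0.33 and 0.44) completed the 5, both named after their values were seen.

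Z00005843-1 also had the widest replicate difference of the late risers at E16.5 and the largest Tabby excess, 1.38 ± 0.668 (limma adjusted p = 1.00). It read -2.42 and -1.73 in wild type and -2.68 and -3.37 in Tabby at E14.5, and -1.68 and -1.06 against -3.25 and -3.00 at E15.5. Tabby was thus lower at the earlier stages and higher at E16.5, where 1 wild-type array sat at the E14.5 level. Z00040176-1 had the next widest replicate difference, with the higher reading again on replicate 2: 0.40 and 2.42 in wild type and 0.08 and 0.65 in Tabby at E16.5, after values between -0.03 and 0.47 on the earlier arrays.

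At E15.5 the widest replicate differences were in Z00005799-1 and Z00026201-1, both bright in the reference and dim in eyelid. Z00005799-1 read -1.90 on WT E15.5 replicate 1 and -3.00 on replicate 2, with -2.82 and -2.88 in Tabby, between -3.08 to -2.99 at E14.5 and -1.50 to -1.15 at E16.5. Z00026201-1 read -3.58 on the same array and -4.65, -4.41 and -4.63 on the other 3. The spots themselves differed little between WT E15.5 replicates 1 and 2. Z00005799-1 had intensities of 59 and 63 in eyelid and 791 and 794 in reference. Z00026201-1 had 81 and 87 in eyelid and 3797 and 3689 in reference. Both ratios thus differed more than the mean spot intensities they start from. Other members also read nearer 0 on WT E15.5 replicate 1 than on replicate 2. Z00023954-1, below the reference, read -2.56 against -3.50, and Z00036939-1, above it, 1.06 against 1.81. Some went the other way, such as Z00005843-1 (-1.68 against -1.06). That array had the lowest share of probes well above background, 71.1%, and it enters every E15.5 comparison of the genotypes. The cause was not tested. Without WT E15.5 replicate 1, 209 of the 236 would still have met the rule, and without any other single array between 200 and 226.

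The 4 remaining overlapping pairs rose together. Z00025473-1 and Z00074877-1, sharing 52 bases, rose 3.92-fold and 3.97-fold. Z00023226-1 and Z00055204-1, sharing 55, rose 3.65-fold and 2.98-fold. Z00032214-1 and Z00076160-1, sharing 42, were dark on all 8 earlier arrays, so their rises of at least 1.31-fold and 1.18-fold are bounds. Z00051018-1 and Z00064598-1, sharing 29, read 1.19 and 0.87, and 1.14 and 0.72, in wild type at E16.5. In Tabby they read 0.44 and 0.43, and 0.39 and 0.55, below wild type in both probes.

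Outside the set, 4 further probes share a run with a late riser and failed the rule. Z00060342-1, which shares 59 of 60 bases with Z00024325-1, had made 33.4% of its rise by E15.5 where the late riser had made 22.6%. Z00063425-1, sharing 40 bases with Z00026201-1, rose 1.67-fold against 2.14-fold. Z00055583-1, sharing 22 bases with Z00074877-1, had made 27.0% by E15.5. Z00031168-1, sharing 29 with Z00032132-1, was not above background on all 4 E16.5 arrays. Probes that share a run of bases thus fell on both sides of the rule.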

How the data were processed

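Spot intensity in both channels was extracted by version 9.5.1.1 of Agilent Feature Extraction (per the file headers, which also give the other flags for spots well above background, saturated or outlying). The authors also deposited a table of log10 values, scale and centring unstated, which applied the rule. Members and lists were chosen with earlier results of these data known. In limma 3.58.1 (R 4.3.3), normexp (offset 50) and within-array loess with the 1417 control spots at weight 0 gave log2 ratios of eyelid over reference, computed here. Of 42006 probes, 71.1% to 79.1% per array were well above background in Cy3, and 32981 were tested: those above background on both arrays of a group. Means of 6 groups were fitted to 12 arrays (6 residual degrees of freedom), with 2-sided eBayes tests, Benjamini-Hochberg adjustment over the tested probes and calls under 0.05. The script was tested on simulated arrays. The number of arrays limits the precision. Named are called members, the smallest p where there was no call, the 5 largest rises, the nearest to each limit and the widest replicate differences; overlapping pairs, dips and channel or single-array cases were added after their values were seen. The treatment text in the labels speaks of footpad skin, whereas titles, sources and tissue give eyelids.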

Additional observations from a re-analysis of the deposited data

How the results depend on the processing

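The 7 late risers called lower in Tabby at E16.5 became 0 with processed signals then loess, with Feature Extraction's log ratio, with the eyelid channel alone, with the authors' value table and with only the arrays of the stage, 1 among probes above background on all 12 arrays, 3 with array weights and 4 with the replicate block. The replicate numbers were not used as pairs in the main fit: over 15 pairs of groups the correlation of same-numbered deviations ran from -0.0888 to 0.242, with 3 over 0.1. Such correlations alone cannot show whether same-numbered samples were paired. Leaving out 1 array gave 0 to 19 calls at E16.5, 0 to 30 at E15.5, 0 to 1 at E14.5, 0 to 19 averaged over stages and 0 to 16 for stage dependence. The median difference at E16.5 was -0.20 from processed signals, -0.19 from Feature Extraction's ratio and from the authors' table, and -0.24 from the eyelid channel. It was negative in all, with 166 to 182 of 236 late risers lower. The rule gave 183 to 302 members under its alternatives; on the log2 ratios of the fit it gave 188, 121 of them shared. Dim signal limits the 33 late risers that were dark before E16.5. The causes were not tested.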
